A study of Mus musculus with 6 samples.

Results

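The solute carrier genes described here are those whose symbol has the plain form Slc, family number, a, member number, and which reached at least 100 counts summed over all wells of 6 libraries. They number 159 of 321 rows of that form, and of 19532 gene rows in the table. Of the other rows, Slc2a1, Slc2a3 and Slc25a31 were left out by the rule, and 159 held fewer than 100 counts, 22 of them none at all. Just outside the minimum stood Slc6a7 with 88.0 counts and Slc5a5 with 91.0, and just inside it Slc5a3 with 102 and Slc13a5 with 104. No difference between cultures entered the choice, and all 159 genes passed the filter on low counts and were tested. They were sorted into 14 substrate classes by family number, which is approximate: Slc10a3 and Slc10a7 stand with the bile acid transporters, and Slc45a4 with the sugar transporters, by family relation alone.

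RNA was read from single sorted mouse embryonic stem cells by SORT-seq, a method in plates in which each transcript is tagged at its 3′ end with a unique molecular identifier (UMI). Cells of the established lines R1 and IB10 were grown in serum-free N2B27 medium with LIF under 3 sets of supplements, giving 1 library per line and culture, each with 188 wells. LIF_2i, the naive culture, held 3 µM CHIR99021, a GSK3 inhibitor that activates WNT signalling, and 0.1 µM PD325901, a MEK inhibitor. Rosette_LIM held 2 µM IWP2, which blocks WNT secretion, together with the MEK inhibitor at the same 0.1 µM, over 6 passages (R1) or 5 passages (IB10). Primed_4d cells were kept for 4 days in FGF2 at 12 ng/ml and human Activin A at 20 ng/ml, with IWP2 at 2 µM and no MEK inhibitor. Cells were at passage 24 (R1) and 28 (IB10) in LIF_2i and primed_4d, and at passage 28 and 33 in rosette_LIM, so passage number moves with rosette_LIM and cannot be told apart from it.

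Solute carriers are membrane proteins that move amino acids, sugars, nucleosides, vitamins, metals and other ions across the plasma membrane and the membranes of organelles, either down a gradient or coupled to sodium, protons or a second solute. Some work in complexes: the heavy chain encoded by Slc3a2 carries several Slc7 light chains to the cell surface. Members of the Slc25 family sit mostly in the inner membrane of mitochondria, and Slc30 and Slc39 proteins move zinc in opposite directions, out of and into the cytosol.

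The libraries held between 4675388 and 7806882 counts, and the solute carrier genes took from 0.628% to 0.696% of them. In R1 primed_4d, 84 of 188 wells held under 6000 counts, against 4 to 38 wells in the others, and 2 wells made up 13.7% of the R1 LIF_2i library. Among the defining markers, the summed level of 3 pluripotency genes (Pou5f1, Sox2, Nanog) was 1129 to 1511 CPM in every library, most of it Pou5f1 and Sox2; against LIF_2i, Nanog was lower in primed_4d (29.8 and 39.8 against 19.5 and 3.03 CPM), as was Sox2 (log2 −0.53). That of 4 naive genes (Klf4, Esrrb, Tfcp2l1, Zfp42) was 1983 to 2342 CPM in LIF_2i and rosette_LIM and 206 to 291 in primed_4d, although Tfcp2l1 was lower in rosette_LIM than in LIF_2i (log2 −1.05). For 4 primed genes (Fgf5, Pou3f1, Dnmt3b, Otx2) it was 54.8 to 97.1 and 1120 to 1140 CPM, most of it Dnmt3b. In rosette_LIM against LIF_2i, Dnmt3b was lower (log2 −0.92), Pou3f1 was higher (2.009-fold), and Otx2 was higher (1.72 and 3.85 against 13.4 and 15.2 CPM, with 13.9 and 18.4 in primed_4d). Lists for other cell types were low: primitive endoderm 5.00 to 15.2 CPM, mesendoderm 4.74 to 29.1, feeder fibroblast 3.32 to 11.4, 2-cell-like 1.04 to 21.0, and trophectoderm 11.8 to 72.5, most of which was Tfap2c. Of their defining genes, Col3a1 and Zscan4f were at 0 in all 6 libraries, Foxa2 and Col1a2 were at 0 outside primed_4d, and Sox17 was at 0 in primed_4d. Others were detected, and some changed at an adjusted p under 0.05. Against LIF_2i, Dab2 and Thy1 were higher in primed_4d (log2 1.96 and 1.04). T, Eomes, Gsc, Gata3 and Tfap2c were lower there (log2 −2.91, −1.90, −2.91, −2.90 and −1.90). In rosette_LIM, T was lower (log2 −3.37) and Tfap2c higher (log2 0.62). Zscan4c ranged from 1.04 to 19.9 CPM over the libraries. The part of such cells, or of the shallow wells, in the results below was not tested beyond the alternatives given.

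Levels are CPM, counts scaled to library size, in R1 and then IB10, and since transcripts were counted at their 3′ ends they do not scale with transcript length. Mean levels ran from 2.72 CPM to 987 CPM with a median of 16.0, and 16 members stood at or above 100 CPM while 53 were below 10. Slc25a5, which exchanges ADP for ATP across the inner mitochondrial membrane, was the most abundant, and Slc3a2 led the amino acid transporters. Log2 fold changes are given ± a standard error, with p-values adjusted over 12098 genes, and a member is called at an adjusted p under 0.05. Gene coordinates are those of GENCODE M21 on GRCm38. Each value is a sum over wells, in which fewer expressing cells and less RNA per cell cannot be told apart.

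Primed_4d cells differed from LIF_2i cells in 78 of the 159 genes. Of these, 35 were higher (22% of members, against 18.3% of all genes tested) and 43 were lower (27%, against 19.6%), and the median log2 change over all members was −0.12, against −0.01 over all genes. Of the amino acid transporters 12 rose and 5 fell, while the carriers of taurine and creatine fell. All 78 called members changed in the same direction in both lines. For 77 the libraries of both cultures did not overlap, the exception being Slc38a4. Over all 159 members, called or not, 127 had the same direction in both lines. With 2 libraries a group a call favours such agreement, so it is not separate support. Its share over all genes was not counted. When any 1 library was left out, 40 of the 78 calls were kept every time, and the count higher went down to 23 without R1 LIF_2i and without IB10 LIF_2i, and the count lower to 27 without IB10 LIF_2i. Over wells of at least 6000 counts the counts were 36 higher and 43 lower, and without the 2 deepest R1 LIF_2i wells, an alternative chosen after seeing the data, 34 and 41.

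**Figure D1:**
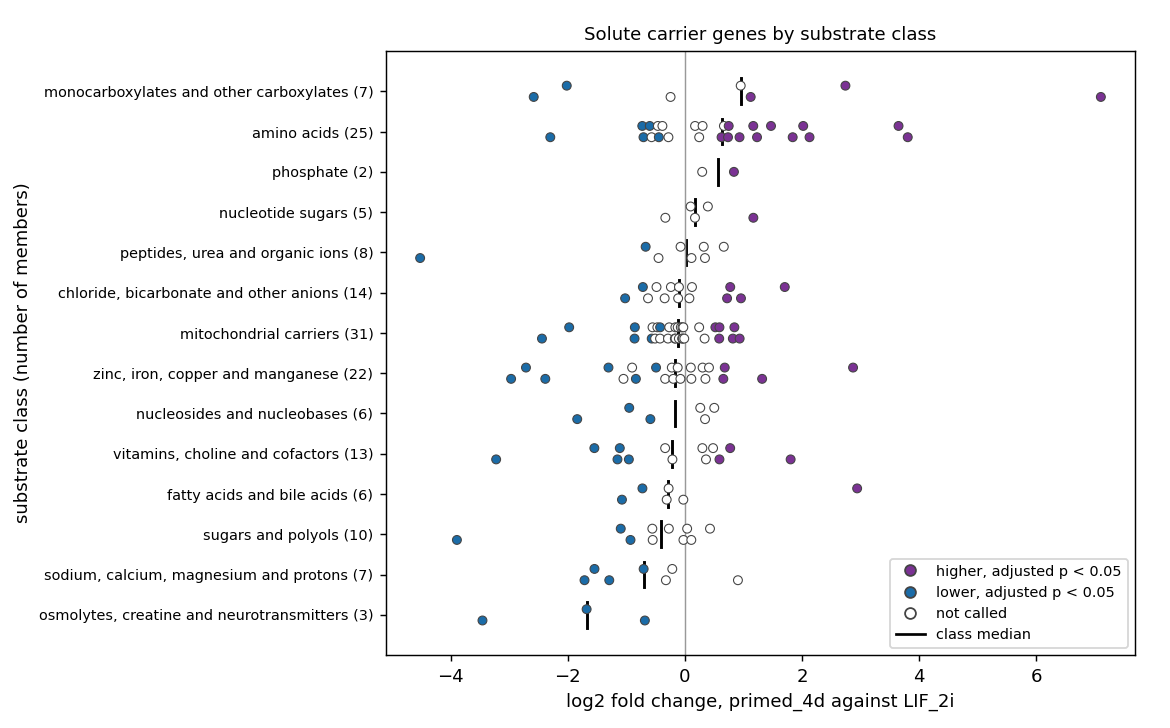
Log2 fold change of each solute carrier gene in primed_4d against LIF_2i (horizontal axis), with a row for each substrate class and its number of members. Filled points are members called at an adjusted p under 0.05, open points are not called, and bars mark class medians; the amino acid row has 12 members called higher and 5 lower.

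Of 25 amino acid transporters, 12 were higher in primed_4d than in LIF_2i (48.0%, against 18.3% of all genes) and 5 were lower (20.0%, against 19.6%), with a median log2 change of 0.62. Their summed level was 1227 and 1281 CPM in LIF_2i, 1379 and 1392 CPM in rosette_LIM and 1887 and 2008 in primed_4d, so the primed libraries lay above all others. Slc7a7 (chr14:54369442-54417780), the light chain that with Slc3a2 exchanges cationic amino acids for neutral ones and sodium, stood at 5.15 and 6.16 CPM in LIF_2i, 4.18 and 7.81 CPM in rosette_LIM and 76.2 and 81.5 in primed_4d. Both primed libraries were far above the other 4, and the rise against LIF_2i was 13.96-fold (log2 3.80 ± 0.21, adjusted p = 6.33e-09). Its partner Slc3a2 stood at 268.8 and 267.2 CPM, 289.4 and 286.4, and 429.4 and 470.2 in the same order. The primed libraries were again the highest, by a smaller factor of 1.68 (log2 0.75 ± 0.10, adjusted p = 5.40e-05). Slc7a5, the large neutral amino acid light chain of the same heavy chain, was not called (127 and 97.1 CPM in LIF_2i, 167 and 112 in primed_4d, adjusted p = 0.0891).

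The sodium-coupled glutamine and alanine transporter Slc38a2 was measured at 138 and 92.7 CPM in LIF_2i, 227 and 235 CPM in rosette_LIM and 364 and 457 in primed_4d. The cultures did not overlap, and primed_4d stood 3.58-fold above LIF_2i (log2 1.84 ± 0.16, adjusted p = 7.20e-07). Its relative Slc38a1 rose by 0.73 ± 0.12 on the log2 scale, from 79.1 and 94.0 CPM to 137 and 150.1. Slc38a9, a lysosomal transporter that reports arginine to the mTORC1 pathway, rose by 1.47 ± 0.24, from 6.29 and 9.62 CPM to 22.9 and 21.2. By contrast Slc38a10 fell by 0.71 on the log2 scale, and Slc38a4, which is imprinted in the mouse, fell by 0.60 with overlapping libraries (68.5 and 126 CPM in LIF_2i, 43.6 and 84.3 in primed_4d). The call of Slc38a4 was lost without the line as a block and without IB10 LIF_2i or R1 primed_4d, with adjusted p-values of up to 0.284.

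Members of 1 family with like substrates moved in opposite directions. Among the glutamate transporters, Slc1a3 was near the floor outside primed_4d, at 1.00 and 2.69 CPM in LIF_2i and 1.39 and 1.76 CPM in rosette_LIM, and reached 23.96 and 22.7 CPM in primed_4d (log2 3.65 ± 0.34, adjusted p = 1.27e-06). Slc1a1 went the other way, with 5.29 and 9.88 CPM in LIF_2i, 15.5 and 15.8 CPM in rosette_LIM and 2.14 and 0.948 in primed_4d (log2 −2.30 ± 0.44, adjusted p = 8.93e-04). Neither gene overlapped between primed_4d and the other cultures. Of the cationic amino acid transporters, Slc7a3 rose from 100.6 and 134 CPM to 236 and 211 (log2 0.93 ± 0.13), and Slc7a1 fell from 112 and 137 CPM to 66.7 and 83.8 (log2 −0.73 ± 0.12). Of the neutral amino acid exchangers, Slc1a4 rose by 1.17 ± 0.18 (adjusted p = 1.27e-04), and Slc1a5 fell by 0.45 on the log2 scale, a call lost without R1 LIF_2i, without R1 primed_4d, under DESeq2 and without the line as a block (adjusted p up to 0.389).

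The glycine transporter Slc6a9 rose 4.37-fold, from 3.00 and 5.39 CPM in LIF_2i and 3.83 and 5.27 CPM in rosette_LIM to 18.4 and 18.0 in primed_4d. Slc16a10, which carries aromatic amino acids, rose from 2.57 and 2.18 CPM to 10.5 and 8.91 (log2 2.02 ± 0.36). Of the branched-chain and large neutral amino acid uniporters, Slc43a2 rose by 1.23 ± 0.23 and Slc43a1 by 0.62 ± 0.21, the latter call being lost without any 1 of the LIF_2i or primed_4d libraries, under DESeq2 and with wells weighted equally (adjusted p up to 0.230).

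**Figure D2:**
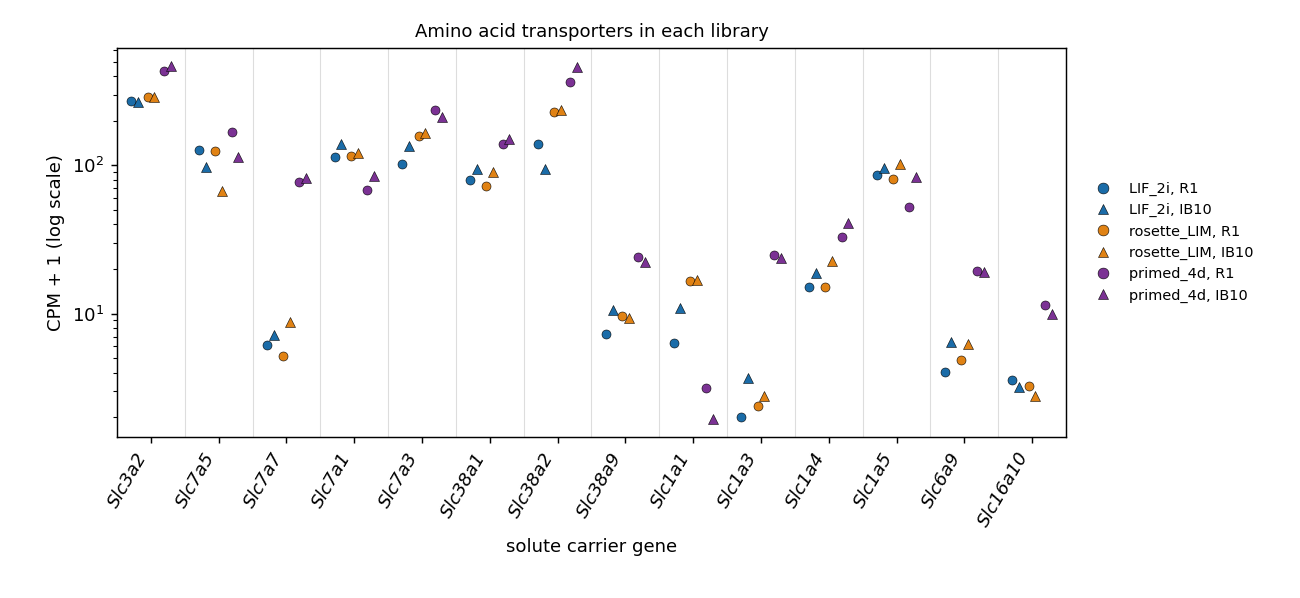
Level of 14 amino acid transporters in each library, as CPM + 1 on a log axis; circles are R1, triangles IB10, and colours the 3 cultures. Slc7a7, Slc1a3, Slc6a9 and Slc16a10 are high in primed_4d alone, Slc38a2 has its levels ordered LIF_2i, rosette_LIM, primed_4d, and Slc1a1 and Slc7a1 are lowest in primed_4d.

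Slc7a7 and Slc1a4 held a match to the composite element bound by ATF4, the factor of the amino acid response, and the upstream stretch of Slc7a7 is shown for that reason, with the match in capitals. Promoters were taken from RefSeq (GRCm38.p6) as 300 bases, 250 before the transcription start and 50 after, and 116 of the 159 members were found there with 161 promoters.
Slc7a7, chr14:54418058-54418105, minus strand: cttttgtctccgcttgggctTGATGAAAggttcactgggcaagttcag
RefSeq gives Slc7a7 several promoters, some without a match, and the stretch shown is from the window with the most matches. The match shown begins 141 bases before the start of that window's transcript, and no exon of Slc7a7 in GENCODE M21 covers it. A second match in the same window lies across the start, and is not shown. The letters TGATGNAA, read on both strands, occurred in 3 of 17 promoters of the amino acid transporters that rose (17.6%), in 4 of 161 member promoters (2.48%) and in 3.97% of 32851 promoters of all genes. All 3 belong to overlapping windows of Slc7a7 and to Slc1a4, whose match is not wholly before the start. Of the other motifs searched, the ESRRB site TCAAGGTCA was in no member promoter (0.423% of all promoters), and the E-box CACGTG was in 16.1% of them (7.15% of all). A match describes the letters only, and no match says only that these letters are not in the window.

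Carriers of fuels changed at the cell surface and in mitochondria. Slc16a3, the lactate exporter of glycolytic cells, stood at 25.8 and 9.11 CPM in LIF_2i, 27.5 and 42.8 CPM in rosette_LIM and 141 and 86.0 in primed_4d. The primed libraries lay above all others (6.68-fold against LIF_2i, log2 2.74 ± 0.30, adjusted p = 5.91e-06), although lines differed within each culture. The widespread lactate carrier Slc16a1 was not called (123 and 116 CPM in LIF_2i, 98.8 and 102 in primed_4d, adjusted p = 0.115).

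Slc25a20 (chr9:108662088-108684641), which brings acylcarnitines into the mitochondrion for fatty acid oxidation, stood at 72.5 and 87.2 CPM in LIF_2i, 117 and 110 CPM in rosette_LIM and 15.2 and 14.2 in primed_4d. The 3 cultures did not overlap, and primed_4d was 5.43-fold lower than LIF_2i (log2 −2.44 ± 0.16, adjusted p = 3.89e-08). Slc27a2, which carries long-chain fatty acids and activates them to their CoA esters, was ordered differently, with 5.87 and 6.54 CPM in LIF_2i, 10.8 and 21.5 CPM in rosette_LIM and 42.6 and 52.5 in primed_4d (log2 2.94 ± 0.22 for primed_4d against LIF_2i). Its relatives Slc27a3 and Slc27a4 fell by 1.08 and 0.73 on the log2 scale, the first a call lost without IB10 LIF_2i (adjusted p up to 0.0767) and the second without R1 LIF_2i, without R1 primed_4d and under DESeq2 (adjusted p up to 0.126). The carnitine importer Slc22a5 was not called (3.15 and 4.23 CPM against 5.35 and 3.98, adjusted p = 0.539).

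Of 10 sugar transporters, which do not include Slc2a1 and Slc2a3, 3 fell under edgeR (30.0%, against 19.6% of all genes) and 1 under DESeq2. None rose under either, also at an unadjusted p under 0.05, while edgeR called 18.3% of all genes higher. The sodium-glucose transporter Slc5a1 went from 6.87 and 5.77 CPM in LIF_2i and 8.70 and 4.69 CPM in rosette_LIM to 0 and 0.758 in primed_4d (log2 −3.89 ± 0.66, adjusted p = 3.31e-04). The sugar-phosphate exchangers Slc37a1 and Slc37a2 fell by 0.93 and 1.10 on the log2 scale, and both calls were lost without IB10 LIF_2i, without either primed_4d library and under DESeq2 (adjusted p up to 0.390 and 0.241), that of Slc37a2 also without R1 LIF_2i, without the line as a block and with wells weighted equally. The citrate importer Slc13a5 fell from 2.29 and 5.26 CPM to 0.856 and 0.379 (log2 −2.58 ± 0.65), a call lost without either IB10 library of this comparison (adjusted p up to 0.177). The proton-coupled peptide importer Slc15a1 (chr14:121459621-121505252) had the largest fall of all members: 18.0 and 24.2 CPM in LIF_2i and 24.2 and 21.1 CPM in rosette_LIM against 0.428 and 1.33 in primed_4d. Primed_4d was 23.0-fold lower than LIF_2i for it (log2 −4.52 ± 0.37, adjusted p = 3.41e-07). Its relative Slc15a4, found on lysosomes, was not called (17.2 and 20.1 CPM against 19.3 and 21.0).

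The Slc6 family members that carry creatine and taurine fell, and both calls were kept in every alternative tried. The creatine importer Slc6a8 stood at 76.3 and 78.2 CPM in LIF_2i, 62.5 and 47.5 CPM in rosette_LIM and 23.5 and 24.6 in primed_4d (3.20-fold lower than LIF_2i, log2 −1.68 ± 0.16, adjusted p = 1.34e-06). The taurine importer Slc6a6 was measured at 140.2 and 157 CPM, 171 and 203, and 80.2 and 106, with the primed libraries below the rest (log2 −0.68 ± 0.12).

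Nucleoside and vitamin carriers fell in part. The concentrative pyrimidine nucleoside transporter Slc28a1 stood at 59.7 and 50.2 CPM in LIF_2i, 67.2 and 81.3 CPM in rosette_LIM and 16.3 and 14.4 in primed_4d (3.58-fold lower than LIF_2i, adjusted p = 1.62e-06). The equilibrative transporter Slc29a1 fell by 0.59 on the log2 scale, a call lost without R1 LIF_2i (adjusted p up to 0.0972). For riboflavin, Slc52a3 fell from 7.01 and 10.3 CPM to 1.07 and 0.758 (log2 −3.22 ± 0.46), while Slc52a2 rose from 8.58 and 11.9 CPM to 16.9 and 18.0 (log2 0.77 ± 0.22), the latter a call lost without either LIF_2i library, without R1 primed_4d and under DESeq2 (adjusted p up to 0.175). The ascorbate transporter Slc23a1 rose from 5.58 and 6.16 CPM to 28.02 and 13.8 (log2 1.80 ± 0.35), a call lost without R1 LIF_2i or R1 primed_4d (adjusted p up to 0.0595), and Slc23a2 was not called. The biotin and pantothenate transporter Slc5a6 fell by 1.15 on the log2 scale, which did not hold without IB10 LIF_2i (adjusted p up to 0.0921), and neither the folate carrier Slc19a1 nor the thiamine carrier Slc19a2 was called.

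**Figure D3:**
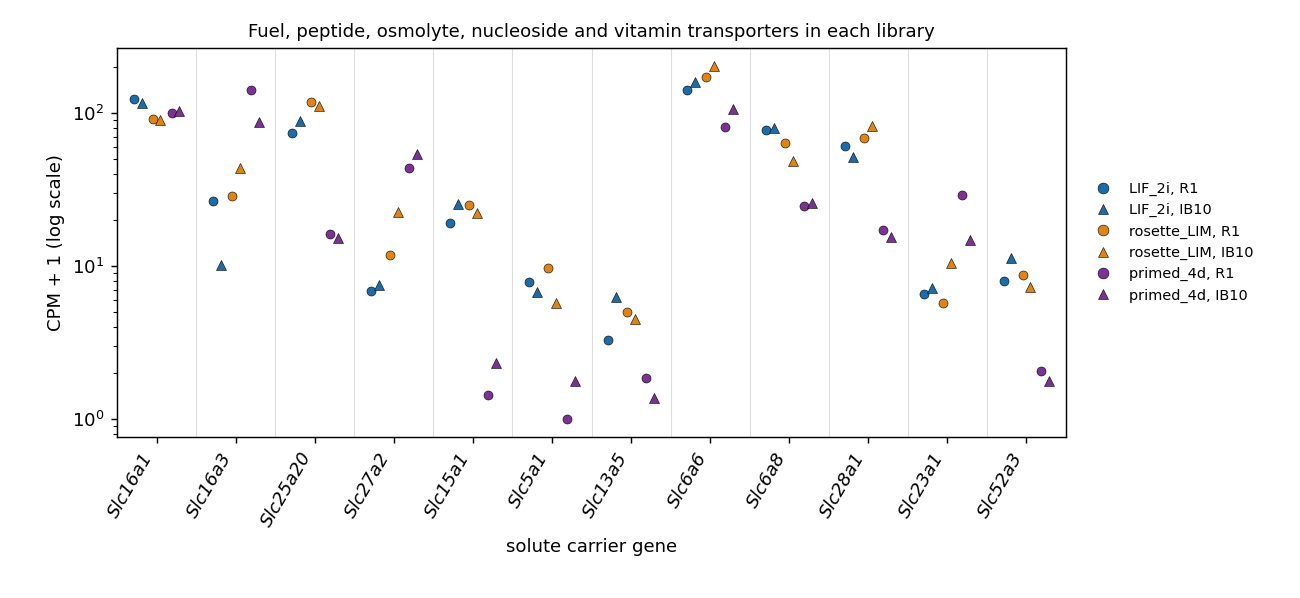
Level of 12 carriers of carboxylates, fatty acid derivatives, peptides, sugars, osmolytes, nucleosides and vitamins in each library, as CPM + 1 on a log axis; circles are R1, triangles IB10, and colours the 3 cultures. Slc25a20 is highest in rosette_LIM and lowest in primed_4d, and Slc15a1 and Slc5a1 are near 0 in primed_4d.

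Of 22 transporters of zinc and other transition metals, 4 rose (18.2%, against 18.3% of all genes) and 6 fell (27.3%, against 19.6%) in primed_4d, and their summed level was 496 and 535 CPM in LIF_2i against 517 and 498. Slc39a14 (chr14:70303469-70351425), which imports zinc, manganese and iron not bound to transferrin, stood at 6.87 and 7.44 CPM in LIF_2i, 7.31 and 5.47 CPM in rosette_LIM and 58.2 and 47.6 in primed_4d. The rise was 7.31-fold and both primed libraries stood apart from the other 4 (log2 2.87 ± 0.20, adjusted p = 5.72e-08). Another 4 Slc39 genes fell. Slc39a11 went from 34.2 and 33.2 CPM to 6.42 and 6.44 (log2 −2.38 ± 0.21), and Slc39a3 from 5.86 and 8.85 CPM to 1.497 and 0.758 (log2 −2.71 ± 0.48). Slc39a4, the zinc importer of the gut, fell by 1.31 on the log2 scale and Slc39a1 by 0.84, the latter a call lost without either IB10 library of this comparison (adjusted p up to 0.0842). Slc39a10 rose by 0.65 ± 0.14, a call lost without R1 LIF_2i (adjusted p up to 0.0690). The vesicular zinc transporter Slc30a4 and its relative Slc30a9 rose by 1.32 and 0.68, calls lost without IB10 primed_4d, under DESeq2 and without R1 or IB10 LIF_2i respectively (adjusted p up to 0.119 and 0.286). Slc39a7, which releases zinc from the endoplasmic reticulum (58.5 and 54.3 CPM against 68.9 and 52.7), and the divalent metal transporter Slc11a2 were not called.

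The zinc exporters Slc30a1 and Slc30a2 were lower in both other cultures than in LIF_2i. Slc30a2, which loads zinc into vesicles, stood at 20.2 and 19.5 CPM in LIF_2i, 6.61 and 3.13 CPM in rosette_LIM and 1.92 and 3.03 in primed_4d (log2 −2.97 ± 0.35 for primed_4d, adjusted p = 1.03e-05). Slc30a1, the exporter of the plasma membrane, stood at 39.2 and 37.6 CPM, 24.5 and 20.1, and 26.9 and 27.5 in the same order. LIF_2i lay above both other cultures for each gene, but the primed_4d call of Slc30a1 (log2 −0.49 ± 0.16) was lost without any 1 of the 4 libraries compared and under DESeq2 (adjusted p up to 0.210). Among 7 other genes of metal handling, 4 fell (57.1%, against 19.6% of all genes) and 1 rose (14.3%, against 18.3%) in primed_4d. The metallothionein Mt1 fell by 1.13 and Mt2 by 0.80 on the log2 scale. The zinc sensor Mtf1 fell by 0.61 and the ferrireductase Steap3 by 2.60, and the ferritin heavy chain Fth1 rose by 0.74.

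MTF1 binds metal response elements, and upstream stretches of both exporter genes that hold the core letters are shown because Slc30a1 is a textbook target of that factor; capitals mark the matches.
Slc30a1, chr1:191906718-191906764, plus strand: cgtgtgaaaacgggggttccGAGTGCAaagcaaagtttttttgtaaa
Slc30a2, chr4:134343248-134343276, plus strand: tcccGCGCGCAacttcgaGGGCGCAccga
The Slc30a1 match shown begins 43 bases before the RefSeq start and outside the gene in GENCODE M21, a second match in that window begins at base 31 of the transcript and is not shown, and the Slc30a2 matches begin 214 and 200 bases before it, within a first exon that GENCODE M21 annotates as 5′ untranslated there. The letters TGCACNC or TGCGCNC, read on both strands, occurred in 10 of 21 promoters of this metal class (47.6%), in 53 of 161 member promoters (32.9%) and in 25.7% of all promoters. These short letters are common, and no binding was measured.

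**Figure D4:**
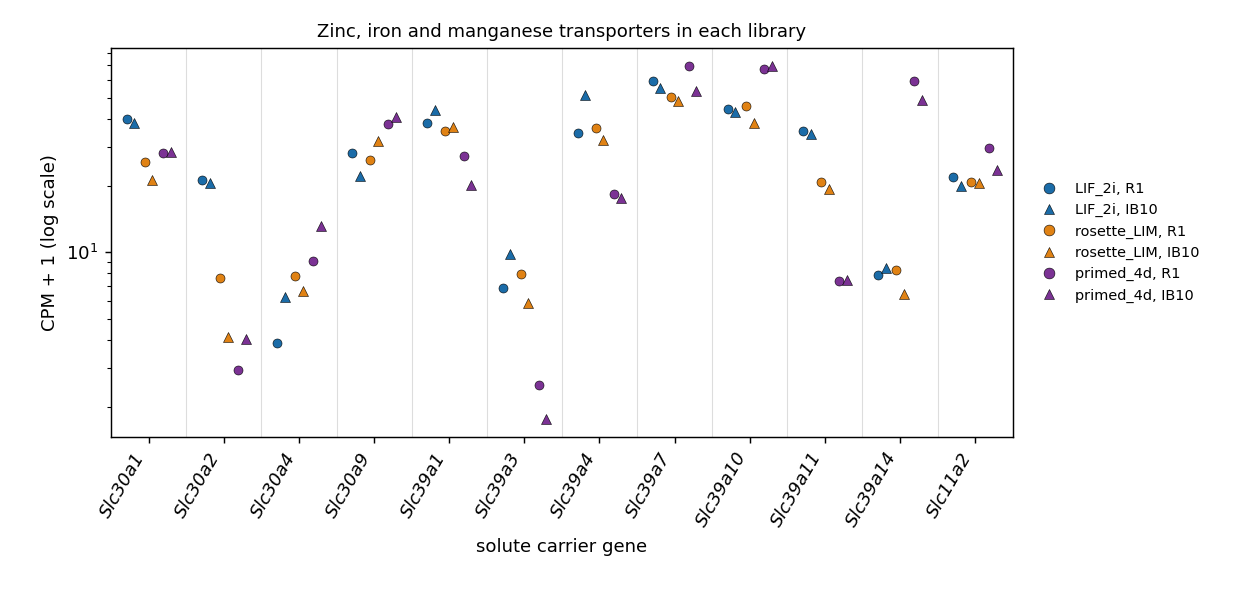
Level of 12 zinc, iron and manganese transporters in each library, as CPM + 1 on a log axis; circles are R1, triangles IB10, and colours the 3 cultures. Slc39a14 is high in primed_4d, Slc39a11 is ordered LIF_2i, rosette_LIM, primed_4d from high to low, and Slc30a1 and Slc30a2 are highest in LIF_2i.

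Some carriers of magnesium, calcium, anions and phosphate also changed in primed_4d. The magnesium transporter Slc41a1 went from 34.8 and 30.1 CPM to 9.20 and 10.4 (log2 −1.72 ± 0.20), its relative Slc41a3 fell by 1.55 on the log2 scale, and the mitochondrial sodium-calcium exchanger Slc24a6 fell by 1.29. The call of Slc24a6 was lost without either R1 library of this comparison (adjusted p up to 0.144). Of 14 anion carriers, 4 rose (28.6%, against 18.3% of all genes) and 2 fell (14.3%, against 19.6%), and DESeq2 called 2 higher and 2 lower. The sodium-bicarbonate importer Slc4a7 rose by 0.96 ± 0.18, the chloride-bicarbonate exchanger Slc4a3 by 1.70 ± 0.35, and the potassium-chloride cotransporter Slc12a7 fell by 1.02 on the log2 scale. The others called were Slc12a4 and Slc12a9, higher by 0.72 and 0.77, and Slc4a5, lower by 0.72. All 3 calls were lost without R1 LIF_2i and without R1 primed_4d (adjusted p up to 0.614, 0.237 and 0.363), and those of Slc12a4 and Slc12a9 also without IB10 LIF_2i, under DESeq2 and with wells weighted equally. The sodium-potassium-chloride cotransporter Slc12a2 was not called (37.6 and 45.4 CPM against 39.4 and 37.2). Of the phosphate importers, Slc20a2 rose from 68.2 and 49.5 CPM to 120 and 90.2 (log2 0.84 ± 0.13), and Slc20a1 was not called in this comparison (adjusted p = 0.101).

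Among 31 mitochondrial carriers, 6 rose and 6 fell in primed_4d, 19.4% each way against 18.3% and 19.6% of all genes, and their median log2 change was −0.12. Slc25a5 stood at 719.7 and 777 CPM in LIF_2i, 1014 and 1169 CPM in rosette_LIM and 1133 and 1109 in primed_4d, so that LIF_2i was the lowest culture (log2 0.58 ± 0.10 in primed_4d). Its paralogue Slc25a4, the phosphate carrier Slc25a3 and the citrate carrier Slc25a1 were not called, with log2 changes of −0.16, −0.04 and −0.03. Apart from Slc25a20, the falls were from −0.42 to −1.98 on the log2 scale. The last was that of Slc25a35, from 7.15 and 7.95 CPM to 2.995 and 0.948, a call lost without IB10 primed_4d (adjusted p = 0.0520). Slc25a39, needed for mitochondrial glutathione import, went from 367 and 399 CPM to 203.9 and 219.5 (log2 −0.86 ± 0.11). Its relative Slc25a40 rose by 0.93 ± 0.20, a call lost without IB10 LIF_2i (adjusted p up to 0.0698). Among nucleotide sugar carriers of the Golgi, the UDP-galactose transporter Slc35a2 rose by 1.17 ± 0.29, which did not hold without IB10 LIF_2i, without R1 primed_4d or under DESeq2 (adjusted p up to 0.0907), and the CMP-sialic acid transporter Slc35a1 and Slc35a4 were not called.

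Rosette_LIM cells differed less from LIF_2i cells: 10 members were higher (6.29%, against 3.19% of all genes) and 7 were lower (4.40%, against 2.35%), with a median log2 change of −0.02. The higher members were Slc4a3, Slc27a2, Slc5a11, Slc36a1, Slc38a2, Slc29a3, Slc45a4, Slc20a1, Slc25a5 and Slc25a20, with log2 changes from 1.61 down to 0.51. Those lower were Slc30a2, Slc5a6, Slc4a7, Slc39a11, Slc30a1, Slc4a5 and Slc44a2, with changes from −2.02 to −0.64. All 17 had the same direction in both lines and no overlap between the libraries of the cultures, which a call favours. Over all 159 members, called or not, 89 had the same direction in both lines. These shares were not counted over all genes. Without the line as a block the counts were 5 higher and 3 lower. Each of the 17 calls was lost on leaving out at least 1 library: 1 higher and none lower remained without R1 LIF_2i, and 1 higher and 1 lower without IB10 LIF_2i.

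Slc30a2 had the largest fall and Slc38a2 rose by 1.00 ± 0.16, with their values given above (adjusted p = 0.00123 and 0.00213). The myo-inositol transporter Slc5a11 stood at 4.86 and 8.72 CPM in LIF_2i, 12.9 and 21.1 CPM in rosette_LIM and 6.85 and 11.4 in primed_4d, highest in rosette_LIM (log2 1.33 ± 0.24, adjusted p = 0.00398). The lysosomal proton-coupled amino acid transporter Slc36a1 stood at 6.44 and 6.41 CPM, 10.96 and 16.2, and 4.49 and 4.17, so rosette_LIM was again the highest. Slc45a4 showed the same order, at 39.9 and 47.2 CPM, 67.5 and 75.4, and 35.3 and 36.6 (a log2 rise of 0.72 ± 0.14 over LIF_2i). The lysosomal nucleoside transporter Slc29a3 was higher in rosette_LIM (10.2 and 11.5 against 17.4 and 20.5 CPM) and lower in primed_4d (5.13 and 6.07 CPM; lost without either LIF_2i library, without IB10 primed_4d and under DESeq2, adjusted p up to 0.0934), and Slc25a20 was called in the same directions. Slc4a7 was the reverse, with 24.9 and 27.3 CPM in LIF_2i, 17.2 and 11.9 CPM in rosette_LIM and 47.3 and 54.0 in primed_4d. In all, 4 members were called higher in both cultures than in LIF_2i (Slc25a5, Slc27a2, Slc38a2, Slc4a3). Another 5 were called lower in both (Slc30a1, Slc30a2, Slc39a11, Slc4a5, Slc5a6). Both comparisons share the LIF_2i libraries, which favours such joint calls, and their share over all genes was not counted.

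**Figure D5:**
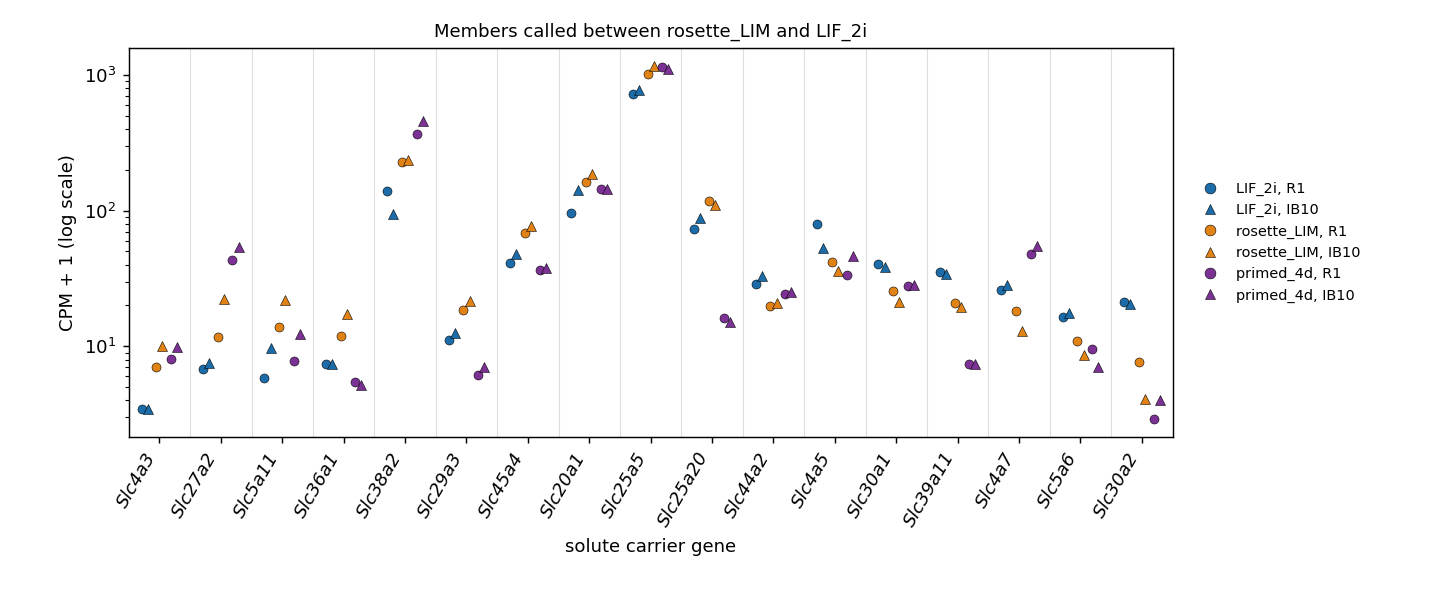
Level of the 17 solute carrier genes called between rosette_LIM and LIF_2i in each library, as CPM + 1 on a log axis, ordered from the largest rise to the largest fall; circles are R1, triangles IB10, and colours the 3 cultures. For all 17 the rosette_LIM points lie on 1 side of the LIF_2i points, while the primed_4d points go further in the same direction for Slc27a2 and Slc38a2 and in the opposite one for Slc25a20 and Slc4a7.

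Primed_4d against rosette_LIM, the cultures that share the block of WNT secretion, gave 33 members higher (20.8%, against 17.1% of all genes) and 39 lower (24.5%, against 19.0%), with a median log2 change of −0.05. For 70 of the 72 the libraries of both cultures did not overlap, the exceptions being Slc1a5 and Slc7a5. A call favours such separation, and its share over all genes was not counted. Of the 25 amino acid transporters 13 were higher and 4 lower (Slc1a1, Slc7a1, Slc36a1 and Slc1a5, the last lost without R1 primed_4d, under DESeq2 and without the line as a block, adjusted p up to 0.312). Of the 10 sugar transporters 6 were lower under edgeR (60.0%, against 19.0% of all genes) and 2 under DESeq2. None was higher under either, also at an unadjusted p under 0.05. The 6 include Slc5a11 and Slc45a4, which were called higher in rosette_LIM than in LIF_2i and not called in primed_4d against LIF_2i. Slc7a7 was higher by 3.74 ± 0.21 on the log2 scale, Slc39a14 by 3.04 ± 0.21 and Slc4a7 by 1.79 ± 0.20. The falls included Slc15a1 (log2 −4.64 ± 0.38), Slc1a1 (−3.36 ± 0.42), Slc25a20 (−2.95 ± 0.16) and the choline transporter Slc44a1 (−1.86 ± 0.53), the last being lost without R1 rosette_LIM, without either primed_4d library and under DESeq2 (adjusted p up to 0.191). Of the 72 calls, 39 were kept without any 1 library.

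Between the lines, no member was higher in IB10 than in R1 (0.24% of all genes were) and 1 was lower (0.629%, against 0.512%). At an unadjusted p under 0.05 edgeR had 15 members higher and 7 lower in IB10, and DESeq2 likewise called none higher. The 1 called member was Slc7a5, at 127 and 97.1 CPM in LIF_2i, 124 and 66.0 CPM in rosette_LIM and 167 and 112 in primed_4d, lower in IB10 in all 3 cultures (log2 −0.62 ± 0.11, adjusted p = 0.0170). The call was lost without R1 LIF_2i (adjusted p = 0.189) and without IB10 LIF_2i (adjusted p = 0.0991).

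Transport proteins with other symbols were read beside these genes. Of 12 found, 4 rose and 3 fell in primed_4d against LIF_2i under edgeR, which called 18.3% of all genes higher and 19.6% lower. DESeq2 called 3 of the 12 higher and 1 lower. Embigin (Emb), a partner of monocarboxylate transporters, rose from 45.1 and 28.7 CPM to 171 and 144 (log2 2.11), and the other partner, basigin (Bsg), was not called. The lipid transporter Mfsd2a and the organic anion transporters Slco3a1 and Slco4a1 rose by 2.55, 2.62 and 1.53, and Slco2a1 fell by 2.18 on the log2 scale. Mfsd2a, Slco3a1 and Slco2a1 held only 46, 70 and 43 counts in all, under the minimum of 100 asked of members. Both subunits of the mitochondrial pyruvate carrier were called lower in primed_4d by edgeR, Mpc1 by 1.02 and Mpc2 by 0.52. DESeq2 had only 1 of the 12 genes lower, also at an unadjusted p under 0.05, so it did not call both subunits. Of the sodium pump, whose gradient drives many solute carriers, the beta subunits Atp1b1, Atp1b2 and Atp1b3 fell by 2.32, 1.07 and 0.60. In rosette_LIM against LIF_2i none of the 12 was called by edgeR (4 at an unadjusted p under 0.05) or DESeq2, while Atp1b2 rose by 1.27.

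The share of wells with a UMI was compared at equal depth, as the share expected if each well held 6000 UMIs, over the wells with at least that many (104 in R1 primed_4d and 150 to 184 in the others). For Slc7a7 it was 2.60% and 3.48% of LIF_2i wells, 2.04% and 4.59% of rosette_LIM wells, and 32.7% and 35.4% of primed_4d wells, and without thinning it was 15.0% and 20.1%, 8.38% and 18.7%, and 78.8% and 76.3%. For Slc25a20 the thinned share was 37.0% and 40.7%, 48.8% and 46.8%, and 8.99% and 8.20%, against 88.1% and 92.4%, 91.1% and 90.7%, and 46.2% and 31.4% without thinning. At equal depth the primed_4d shares were thus the highest for Slc7a7 and the lowest for Slc25a20. For Slc39a14 the thinned shares were 3.40% and 4.45%, 4.30% and 3.35%, and 26.3% and 23.2%, and the unthinned ones 18.1% and 22.3%, 15.1% and 13.3%, and 70.2% and 58.0%.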

How the data were processed

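The authors deposited 1 expected count for every gene in every well; per the labels, cells were sorted into plates with CEL-Seq2 primers, and all 1297 distinct values equal, within 0.01, the molecules expected from a whole number of 4096 possible UMIs. BWA and mm10/GRCm38 come from the submitters' processing notes; versions and annotation are not given there. ERCC rows (1.75% of counts) were left out. Since wells are not replicates, each library's 188 wells were added up, rounded and tested with edgeR 4.0.16 in R 4.3.3: TMM, filterByExpr with a minimum count of 10, quasi-likelihood, culture and line over all 6 libraries, two-sided, Benjamini-Hochberg over 12098 genes (common dispersion 0.0106), checked on simulated data. The line is a block because it is shared in the labels; IB10 minus R1 differences correlated across genes, which are not independent, by 0.137, 0.178 and 0.0812 between pairs of cultures. With 2 libraries a group an exact permutation test cannot pass the threshold. The labels name no separate cultures of a line, so a p-value covers only the spread of these libraries, which may be technical.

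Members, classes and gene lists were chosen with earlier results of these data known. Named were the 10 largest changes each way per culture comparison, the 5 largest between lines, the most abundant member of each class, textbook transporters and genes next to the count minimum; some genes that this rule names are not reported here, though counts over members and classes include them. Slc1a4, Slc20a2, Slc41a1 and other relatives named beside them, the promoters and their motifs were chosen after values were seen. Coordinates are GRCm38; 158 members matched GENCODE M21. Alternatives used DESeq2 1.42.0, limma 3.58.1, other normalization, filters and wells, and each library left out.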

Additional observations from a re-analysis of the deposited data

Results flagged for a closer look

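In primed_4d against rosette_LIM, 3 of the members named by rule moved in opposite directions in R1 and IB10, and the difference between lines was not tested. Slc25a4 was higher by 0.19 in R1 and lower in IB10, at −0.27 on the log2 scale. Slc25a5 was higher by 0.16 in R1 and lower in IB10, at −0.0761. Slc4a5 was lower in R1, at −0.33, and higher by 0.37 in IB10. With 1 library per line and culture these are differences between single libraries. None of the 3 was called over both lines by edgeR (adjusted p = 0.870, 0.777 and 0.864).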

How the results depend on the processing

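For members higher in rosette_LIM than in LIF_2i (10 as reported), DESeq2 gave 5, no replicate block 5, and leaving out each library 1 to 15; for those lower (7), DESeq2 gave 1, no replicate block 3, equal weight for wells 3, and leaving out each library 0 to 9. Primed_4d against LIF_2i had 23 higher under DESeq2, and 23 to 41 higher and 27 to 49 lower without each library. Primed_4d against rosette_LIM had 21 higher and 22 lower under DESeq2. IB10 against R1 had 1 higher with library totals only, 4 without the filter and 1 over wells of 6000 or more counts, 2 lower without the filter, and 0 to 2 higher and 0 to 4 lower without each library. The cause was not tested. The replicate block, read as the shared line, moved no other count by over 1.5 times. No call of a member changed direction under any alternative. Leaving out the 2 deepest R1 LIF_2i wells was chosen after seeing the data. In primed_4d against LIF_2i, Slc6a6 and Slc6a8 were called lower under every alternative run, and 11 to 14 amino acid transporters were called higher (12 as reported). Where a library is left out, the lone sample is assumed to vary like the other groups. Depth limits the members near the minimum of 100 counts most.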
